A study of Mus musculus with 16 samples.

Results

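The genes described here carry out the class I route of antigen presentation: B2m, H2-D1, Tap1, Tap2, Tapbp, Erap1, Psmb8, Psmb9, Psmb10 and Nlrc5. They are 10 of the 18193 genes that the arrays read with a probe set of their own, and they were chosen by symbol, each with every probe set that carries it alone, 25 in all. The arrays measured CT26 cells, a colon carcinoma line of BALB/c mice, in 4 stably transfected lines selected with hygromycin. Control cells carried the pU6-m3 vector without an insert, shSep15 cells a hairpin against Sep15 (gene Selenof), shTR1 cells a hairpin against thioredoxin reductase 1 (TR1, gene Txnrd1), and shTR1/shSep15 cells both hairpins, each driven by the U6 promoter of that vector. Each line was read on 4 arrays from 4 mRNA samples, 16 in all. The sources used here do not say whether the samples of a line were separate clones or cultures, so that p-values measure the spread between these samples.

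Class I molecules show short peptides from the inside of a cell to CD8 T cells. Proteasomes cut proteins, and after exposure to interferon the standard catalytic subunits are replaced by Psmb8, Psmb9 and Psmb10, which changes the peptides that are made. The transporter Tap1/Tap2 brings the peptides into the endoplasmic reticulum, Erap1 trims their ends, and tapasin (Tapbp) holds the empty heavy chain, here H2-D1, with β2-microglobulin (B2m) at the transporter until a fitting peptide is bound. Nlrc5 is the transactivator of class I genes and works through factors bound to their promoters. Tumour cells often carry low levels of these genes, which hides them from T cells.

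The hairpins matched these stretches of the Sep15 and TR1 cDNA, as the labels give them:
Sep15 hairpin: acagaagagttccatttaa
TR1 hairpin: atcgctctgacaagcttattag

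Promoters are shown for the genes that passed a test below or had the largest difference in a line, so that their arrangement can be read beside their values. Of the 10 genes, 8 have a promoter window in the RefSeq table used (mouse build GRCm38.p6, from 250 bases before to 50 after the start), and Tap2 and Nlrc5 were not matched. Capitals mark 3 motifs, searched on both strands: the core of the interferon-stimulated response element, GAAANNGAAA, the core of the gamma-activated site, TTCNNNGAA, and the CCAAT box, CCAAT. No 2 matches overlap in the windows shown. Each stretch is the plus strand in the direction of the gene and ends at the base before its start, and the last lies between the starts of Psmb9 and Tap1, which point away from each other:
B2m chr2:122147437-122147686: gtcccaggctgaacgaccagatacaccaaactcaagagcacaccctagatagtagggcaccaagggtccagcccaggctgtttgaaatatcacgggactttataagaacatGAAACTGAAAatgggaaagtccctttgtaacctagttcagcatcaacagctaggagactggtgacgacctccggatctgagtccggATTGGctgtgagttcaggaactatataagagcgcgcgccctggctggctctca
H2-D1 chr17:35262844-35263093: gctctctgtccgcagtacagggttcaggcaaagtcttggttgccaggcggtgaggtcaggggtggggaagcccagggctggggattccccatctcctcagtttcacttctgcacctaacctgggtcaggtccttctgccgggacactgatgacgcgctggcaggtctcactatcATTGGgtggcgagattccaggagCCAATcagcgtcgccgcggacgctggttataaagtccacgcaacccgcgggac
Tapbp chr17:33919228-33919477: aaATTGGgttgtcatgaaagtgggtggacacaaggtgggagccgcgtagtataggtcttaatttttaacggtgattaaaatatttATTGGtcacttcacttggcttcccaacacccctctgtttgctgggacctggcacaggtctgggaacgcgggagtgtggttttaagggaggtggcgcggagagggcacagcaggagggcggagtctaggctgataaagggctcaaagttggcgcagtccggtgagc
Psmb8 chr17:34197945-34198194: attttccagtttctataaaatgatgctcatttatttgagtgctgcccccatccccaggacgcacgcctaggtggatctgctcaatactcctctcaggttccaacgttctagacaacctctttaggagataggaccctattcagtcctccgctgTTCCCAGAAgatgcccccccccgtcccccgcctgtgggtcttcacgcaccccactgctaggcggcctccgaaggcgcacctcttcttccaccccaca
Psmb9 to Tap1 chr17:34187331-34187555: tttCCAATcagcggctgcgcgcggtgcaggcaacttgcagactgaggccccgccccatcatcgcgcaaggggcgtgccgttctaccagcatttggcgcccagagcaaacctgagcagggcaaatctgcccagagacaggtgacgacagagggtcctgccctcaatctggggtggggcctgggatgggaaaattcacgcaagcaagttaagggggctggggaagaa

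The GAAANNGAAA core was found in B2m, 139 bases before the start, and in 3.44% of all 32851 windows. It was also found in Erap1, where the match begins 4 bases before the start and runs past it. The TTCNNNGAA core was found in Psmb8 alone among the 8, 97 bases before the start, and in 8.3% of all windows. A CCAAT box lay in 5 of the 8 windows, those of B2m, H2-D1, Tapbp, Tap1 and Psmb9, and in 37.4% of all windows. Tap1 and Psmb9 share theirs, since only 225 bases separate their starts, and H2-D1 and Tapbp hold 2 each. The window of Psmb10 holds none of the 3 motifs. These are exact matches of letters and not measured binding. Forms of the elements with other letters were not searched, so that a window without a match can still hold one. In the RefSeq order of genes, Psmb9, Tap1, Psmb8 and Tap2 follow each other on chromosome 17, which also holds Tapbp and H2-D1, so that 6 of the 10 genes lie on that chromosome. B2m lies on chromosome 2, Psmb10 and Nlrc5 on chromosome 8 and Erap1 on chromosome 13.

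Some properties of the arrays bear on every value below. Txnrd1 had log2 signals of 7.85, 10.57, 7.89 and 9.71 on the arrays labelled shTR1 and of 9.96 ± 0.40 (SD, n = 4) in control cells. Replicates 2 and 4 labelled shTR1 thus lay at the control level, so that this line is called by its label and its results are also given without these 2 arrays. When arrays were weighted by their spread, control replicate 2 had the lowest weight of the 16 (0.244). Its mean over 10 transcription factors of class I genes was 8.75, against 7.42 to 7.62 on the other control arrays. It is counted below with these 2 arrays as 1 of 3 doubtful arrays. Selenof was low on every array that carries its hairpin, 8.13 ± 0.12 in shSep15 and 7.66 ± 0.22 in shTR1/shSep15 cells against 11.33 ± 0.37 in control cells (SD, n = 4). Ptprc, the common leukocyte antigen, lay between 2.42 and 3.09 on all 16 arrays, where the lowest signal of any probe set was 1.81 to 1.96. Of the 9 leukocyte markers measured, however, 5 to 6 lay at or above the median of the array on every array. The mean log2 signal of the leukocyte list was 5.08 to 5.60 on control arrays, 4.97 to 5.35 on shSep15 arrays, 4.98 to 5.43 on those labelled shTR1 and 5.21 to 5.76 on shTR1/shSep15 arrays. Of the 9 leukocyte, 5 endothelial and 6 dendritic cell markers measured, 1 differed in shSep15 against control, Cd14, a lipopolysaccharide receptor, which fell by 1.29 (standard error 0.27, adjusted p = 0.0238 by limma). Of the 8 epithelial markers the keratins Krt18 and Krt20 fell in shSep15 against control cells, by 2.68 and 3.28 (adjusted p = 0.039 and 0.00155 by limma), Epcam had line means of 5.70 to 6.04, and Cdh1, the epithelial cadherin, lay near the floor in all lines (2.42 to 2.59). The mean log2 signal of the epithelial list was 4.12 to 4.32 on shSep15 arrays and 4.81 to 5.39 on control arrays, and the part of these markers in the results below was not tested.

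Against control, most class I genes had higher means in shSep15 cells and on the arrays labelled shTR1, and lower means in shTR1/shSep15 cells. None passed the test. In shSep15 cells 9 of the 10 genes had higher means than control, with a median log2 difference of 0.43, where the median over all genes was −0.02. The largest were Tap1 (1.07), Tapbp (0.96) and Psmb9 (0.93). On the arrays labelled shTR1 all 10 had higher means, with a median of 0.38 against −0.03 over all genes, led by Psmb8 (1.45), Tapbp (0.69) and H2-D1 (0.60). In shTR1/shSep15 cells 8 of 10 had lower means, with a median of −0.18 against 0.01. These 3 comparisons share the control arrays.

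By limma with Benjamini-Hochberg adjustment over 45037 probe sets, 0 of the 10 genes passed an adjusted p of 0.05 in shSep15 cells, where 2.72% of all genes did, 0 on the arrays labelled shTR1 (0.275% of all genes), and 0 in shTR1/shSep15 cells (0.0385%). At an unadjusted p under 0.05, 6 genes were higher in shSep15 cells (10.1% of all genes) and 2, H2-D1 and Psmb8, on the arrays labelled shTR1 (9.08%), and 0 were higher or lower in shTR1/shSep15 cells (6.2% higher, 2.59% lower). H2-D1 and Psmb8 were also higher on all arrays labelled shTR1 than on any control array, as were 3.28% of all genes. The test that the study's methods name gave, with adjustment, 0 of the 25 probe sets in each of the 3 lines. Of all probe sets it gave 1.23% in shSep15 cells, 0.118% on the arrays labelled shTR1 and 0.02% in shTR1/shSep15 cells. Without adjustment it gave 8 higher and 1 lower in shSep15 cells (12.2% of all probe sets either way), 4 higher and 1 lower on the arrays labelled shTR1 (11.2%), and 4 lower in shTR1/shSep15 cells (7.48%). Without replicates 2 and 4 labelled shTR1, Tap1 on the remaining 2 arrays of that line differed from control by 0.005, Tapbp by 0.16, Psmb8 by 0.38 and H2-D1 by 0.42, all with an adjusted p of 0.711 or more by limma.

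**Figure D1:**
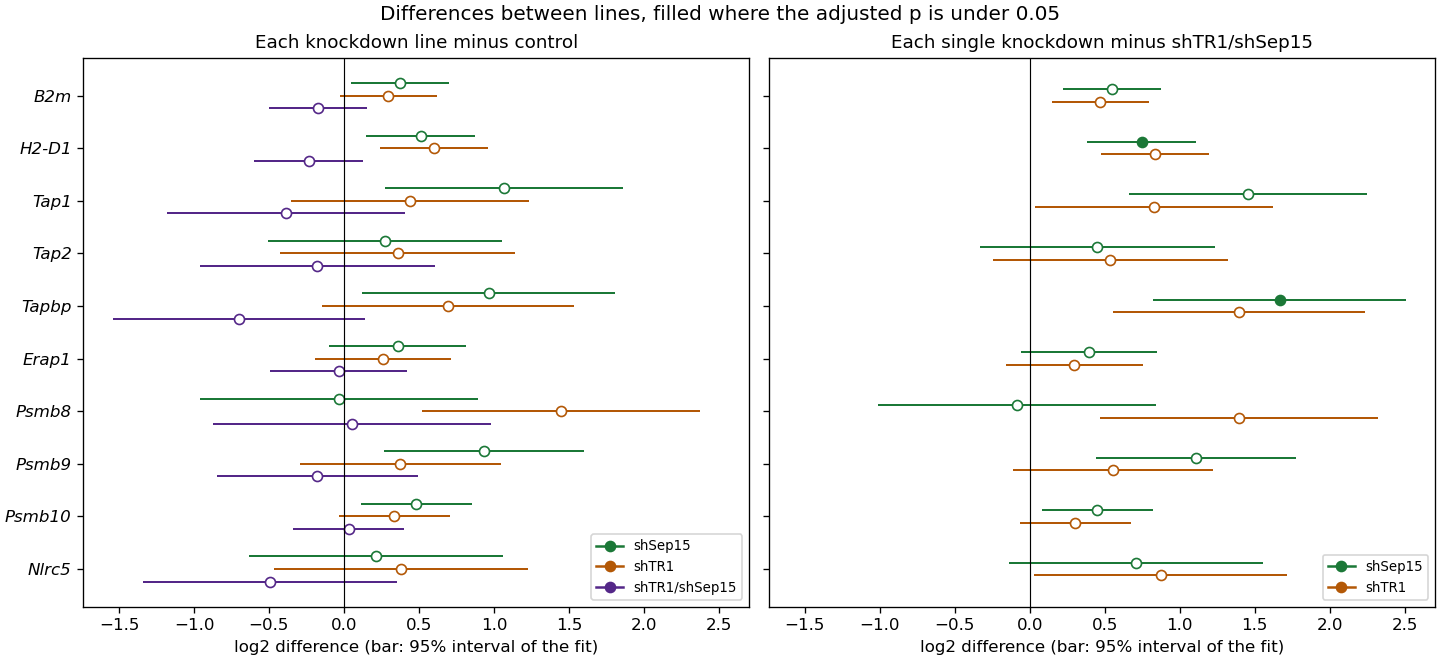
Log2 difference with its 95% interval for each of the 10 genes (brightest probe set), of each knockdown line from control on the left and of each single knockdown from shTR1/shSep15 cells on the right; filled points have an adjusted p under 0.05 by limma. No point on the left is filled, and on the right Tapbp and H2-D1 in shSep15 cells are.

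Against the line that carries both hairpins 2 genes passed the test. Tapbp and H2-D1 were higher in shSep15 than in shTR1/shSep15 cells, by 1.67 and 0.75 on the log2 scale, which is 3.17-fold and 1.68-fold. They are 2 of the 10 genes, and 1.9% of all genes were higher in this comparison. Of the 25 probe sets 5 were higher, those of Tapbp (1) and H2-D1 (4), and 1.58% of all probe sets were. The arrays of the 2 lines did not overlap for 5 genes, B2m, Tap1, Tapbp, Psmb10 and H2-D1, where 8.27% of all genes were higher without overlap, and 6 had an unadjusted p under 0.05 (8.3% of all genes). Tap1, with a difference of 1.45 and an adjusted p of 0.0506, B2m with 0.55 and 0.0687, and Psmb9 with 1.11 and 0.0771 did not pass. By the methods' test neither call stood, with an adjusted p of 0.0823 for Tapbp and 0.0548 for H2-D1, and 0 of the 25 probe sets passed with adjustment (1.64% of all) and 14 without (12.6%).

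Same-numbered arrays of these 2 lines had correlated deviations from the line means (0.105 to 0.466), so that the replicate number was also fitted as a block. No other pair of lines showed this on all 4 numbers, and whether the numbers mark a pairing was not tested. With the block in the fit of all 16 arrays Tapbp passed (adjusted p = 0.023 by limma), H2-D1 did not (0.0572) and Tap1 did (0.0373), and 2 of the 25 probe sets passed (2.17% of all). With the block on the 8 arrays of the 2 lines alone, chosen after seeing the data, 17 of the 25 passed, where 12.9% of all probe sets did. In that fit 8 of the 10 genes passed, and Tap2 and Psmb8 did not.

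The arrays labelled shTR1 gave higher means than shTR1/shSep15 cells for all 10 genes, with a median of 0.69 (all genes −0.05), and 0 passed by limma (0.11% of all genes). At an unadjusted p under 0.05 by limma there were 6 (6.61% of all genes were higher so), and 4 did not overlap (5.32%). The methods' test gave 0 of the 25 probe sets with adjustment (0.02% of all) and 12 without (9.63%). Without replicates 2 and 4 labelled shTR1, 9 of the 10 means were higher, with a median of 0.36. Then 0 passed by limma, and 12 of all 45037 probe sets did. Tapbp then differed by 0.86, Tap1 by 0.39, Psmb8 by 0.33 in place of 1.39, and H2-D1 by 0.66. The comparisons share the shTR1/shSep15 arrays.

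Between the single knockdowns 0 of the 10 genes passed by limma, where 0.945% of all genes did. At an unadjusted p under 0.05 Psmb8 alone differed, lower in shSep15 cells (5.04% of all genes were lower so) and without overlap (3.69%), with a log2 difference of −1.48 (adjusted p = 0.198 by limma). The methods' test gave 0 probe sets with adjustment (0.309% of all) and 1 without (7.6%). Without replicates 2 and 4 labelled shTR1 the difference of Psmb8 was −0.41 (adjusted p = 0.666 by limma). For B2m the difference of shSep15 from shTR1 was 0.08 with a 95% interval from −0.24 to 0.40, and for H2-D1 it was −0.09 with an interval from −0.44 to 0.27.

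**Figure D2:**
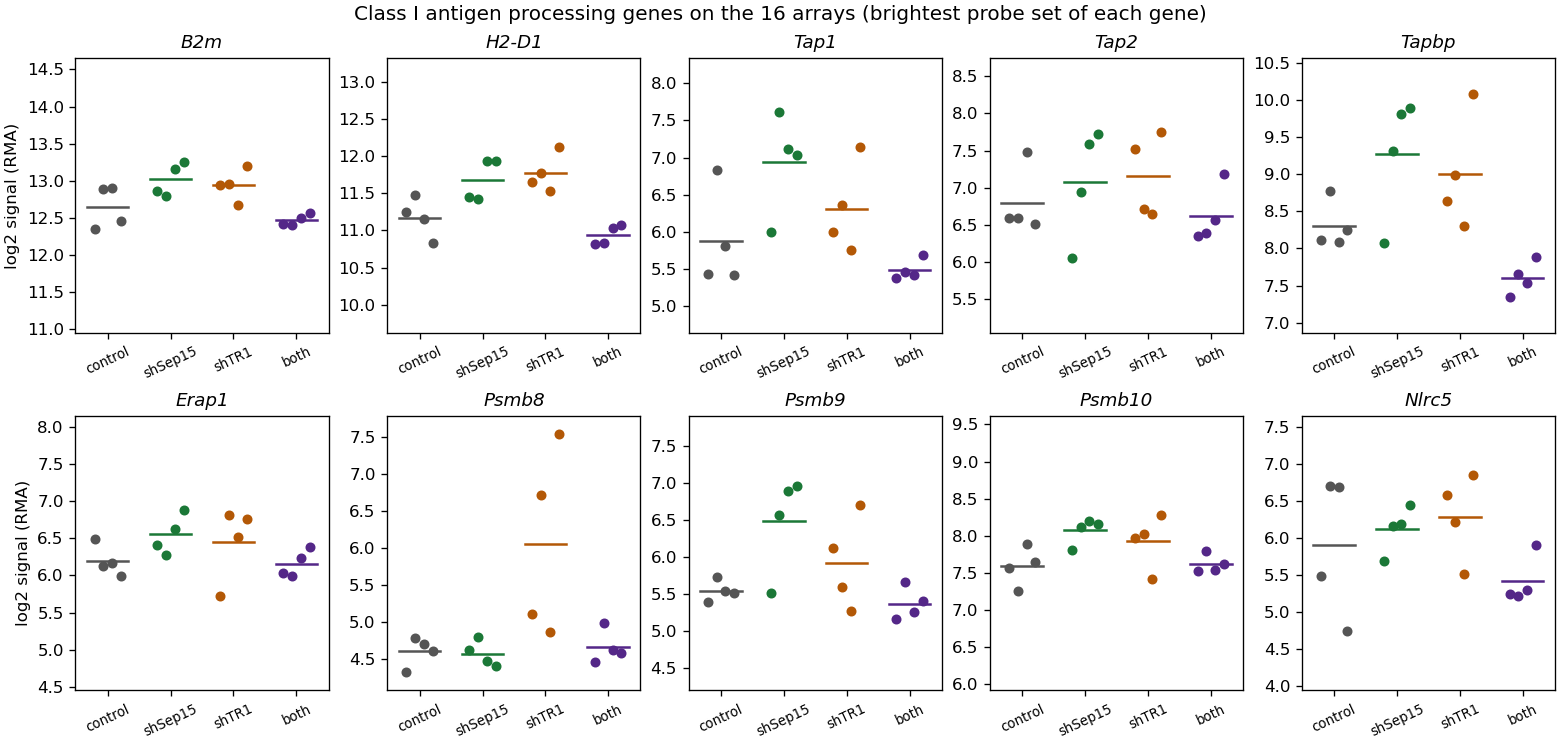
Log2 signal of the 10 genes on every array, by line ("both" is shTR1/shSep15; points in the order of the replicate numbers, lines at the means, and the same height of axis in every panel). The 4 shTR1/shSep15 arrays lie close together and low for Tap1, Tapbp, B2m and H2-D1, and replicates 2 and 4 labelled shTR1 stand high for Psmb8.

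H2-D1 encodes a classical heavy chain and B2m the light chain that every class I molecule needs. The log2 signals of H2-D1 were 11.24, 11.47, 11.15 and 10.82 in control cells, 11.45, 11.42, 11.93 and 11.94 in shSep15 cells, 11.66, 11.78, 11.53 and 12.12 on the arrays labelled shTR1, and 10.82, 10.84, 11.03 and 11.07 in shTR1/shSep15 cells. All 8 arrays of the single knockdowns lay above all 4 shTR1/shSep15 arrays, and those labelled shTR1 also above all control arrays. The excess of shSep15 over shTR1/shSep15 cells was 0.75 (standard error 0.17, adjusted p = 0.0266), that of the arrays labelled shTR1 was 0.83 (standard error 0.17, adjusted p = 0.0869), both by limma, and the exact two-sided permutation test gave 0.0286 for each, the smallest p that 4 against 4 arrays allow. Against control the values were 0.51, 0.60 and −0.23 for shSep15, shTR1 and both, with adjusted p of 0.162, 0.169 and 0.776. The order of the means was shTR1, shSep15, control, shTR1/shSep15, and no neighbours in it passed the test. Without any 1 of shSep15 replicates 3 and 4 or of the shTR1/shSep15 replicates, the adjusted p for shSep15 against shTR1/shSep15 cells rose above 0.05, up to 0.0977. It was 0.0572 with the replicate block on all arrays and 0.00404 with the block on these 2 lines alone. Without control replicate 2 the arrays labelled shTR1 passed against shTR1/shSep15 cells, with an adjusted p of 0.0412.

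H2-D1 is read by 9 probe sets, of which 7 carry the suffix by which the manufacturer marks probes that also match other sequences, and heavy chain genes are close relatives of each other. The 7 brighter ones followed each other over the 16 arrays, with Pearson correlations of 0.80 to 1.00. They share sequence and arrays and are not separate evidence. In these 7 the differences of shSep15 from shTR1/shSep15 cells were between 0.74 and 1.25. The 2 others lay below the median signal of 4.52 and gave 0.62 and 0.03 in that comparison, neither past the threshold. BALB/c mice carry other alleles of the H2 genes than the strain of the reference genome, and which allele each probe matches was not examined. The plot of the 9 probe sets shows, in the 7 brighter ones, both single knockdowns above control and control above shTR1/shSep15 cells in their means.

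**Figure D3:**
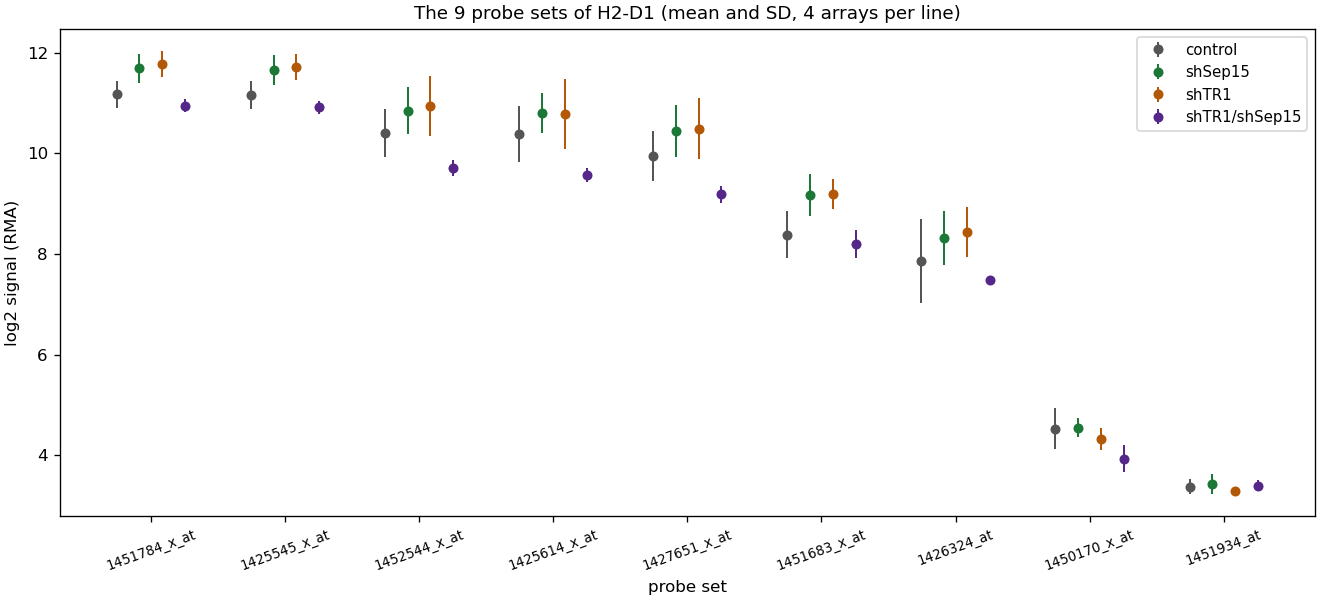
Mean and SD of the log2 signal of each H2-D1 probe set, ordered by brightness, for the 4 lines (4 arrays each). In the 7 brighter probe sets shTR1/shSep15 cells have the lowest mean, with an SD of 0.06 to 0.28.

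B2m had log2 signals of 12.35, 12.88, 12.90 and 12.46 in control cells, 12.87, 12.80, 13.16 and 13.26 in shSep15 cells, 12.94, 12.96, 12.68 and 13.20 on the arrays labelled shTR1, and 12.41, 12.40, 12.50 and 12.57 in shTR1/shSep15 cells. The single knockdowns did not overlap with shTR1/shSep15 cells and did with control. Their excess over shTR1/shSep15 cells was 0.55 and 0.47 (standard error 0.15 each), with adjusted p of 0.0687 and 0.259 by limma, and without control replicate 2 the first passed, with 0.0425. A signal this near the top of the scale, where the highest probe sets reach 13.72 to 13.86, can be compressed. The second B2m probe set gave 0.55 and 0.44, with adjusted p of 0.142 and 0.406.

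Tapbp encodes tapasin, the chaperone that ties the heavy chain to the transporter. Its log2 signals were 8.12, 8.78, 8.09 and 8.24 in control cells, 8.08, 9.32, 9.81 and 9.88 in shSep15 cells, 8.64, 8.98, 8.30 and 10.08 on the arrays labelled shTR1, and 7.35, 7.66, 7.54 and 7.88 in shTR1/shSep15 cells. Every shTR1/shSep15 array lay below every array of the other 3 lines, while shSep15 replicate 1 stayed at the control level. The excess of shSep15 over shTR1/shSep15 cells was 1.67 (standard error 0.39, adjusted p = 0.0343 by limma), and that of the arrays labelled shTR1 was 1.39 (standard error 0.39, adjusted p = 0.204). Without any 1 of shSep15 replicates 2 to 4 or of the shTR1/shSep15 replicates the first was not past the threshold, with an adjusted p of up to 0.122. Against control shTR1/shSep15 cells had −0.70 (adjusted p = 0.693 by limma; exact two-sided permutation p = 0.0286), and 1.35% of all genes were lower without overlap there. A second, dimmer Tapbp probe set gave 0.67 and 0.75 for the 2 single knockdowns against both, neither past the threshold.

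Tap1 and Tap2 together make the peptide transporter. Tap1 had log2 signals of 5.43, 6.83, 5.81 and 5.42 in control cells, 6.0, 7.61, 7.12 and 7.03 in shSep15 cells, 6.0, 6.36, 5.75 and 7.14 on the arrays labelled shTR1, and 5.37, 5.46, 5.42 and 5.69 in shTR1/shSep15 cells. Both single knockdowns lay above shTR1/shSep15 cells on all arrays, and control replicate 2 stood above the other 3 control arrays and above shSep15 replicate 1. The excess over shTR1/shSep15 cells was 1.45 in shSep15 cells (standard error 0.37, adjusted p = 0.0506 by limma) and 0.83 on the arrays labelled shTR1 (adjusted p = 0.456). The first passed without replicates 2 and 4 labelled shTR1, which enter the estimate of the spread, with an adjusted p of 0.0396. It also passed without control replicate 2 (0.0157), shSep15 replicate 1 (0.0184), or replicate 3 or 4 labelled shTR1 (0.0496 and 0.0343). The difference of shSep15 from control, 1.07, became 1.39 and passed without control replicate 2 (adjusted p = 0.0451). The 3 other Tap1 probe sets lay below the median signal and differed from shTR1/shSep15 cells by −0.08 to 0.03 in the single knockdowns. Tap2 showed overlapping lines: means of 6.80 ± 0.46 in control, 7.07 ± 0.76 in shSep15, 7.16 ± 0.56 on the arrays labelled shTR1 and 6.62 ± 0.38 in shTR1/shSep15 cells (SD, n = 4), and its lowest adjusted p in any of these comparisons was 0.454.

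Erap1, the aminopeptidase that trims peptides to the length that class I molecules hold, had means of 6.19 ± 0.21 in control, 6.55 ± 0.26 in shSep15, 6.45 ± 0.50 on the arrays labelled shTR1 and 6.16 ± 0.18 in shTR1/shSep15 cells (SD, n = 4). All lines overlapped and no comparison passed. Without replicates 2 and 4 labelled shTR1 its difference of that line from control turned from 0.26 to −0.07. A second Erap1 probe set lay below the median signal of 4.52. Its means were 3.19 in control, 3.64 in shSep15, 3.46 on the arrays labelled shTR1 and 3.14 in shTR1/shSep15 cells.

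Of the 3 immunoproteasome subunits Psmb8 had its highest mean on the arrays labelled shTR1, and Psmb9 and Psmb10 in shSep15 cells. Psmb8 had log2 signals of 4.33, 4.78, 4.71 and 4.62 in control cells, 4.62, 4.80, 4.48 and 4.41 in shSep15 cells, 5.11, 6.72, 4.87 and 7.54 on the arrays labelled shTR1, and 4.46, 4.99, 4.62 and 4.58 in shTR1/shSep15 cells. The 2 high values were on replicates 2 and 4 labelled shTR1, the same arrays on which Txnrd1 was at 10.57 and 9.71. The line's difference from control was 1.45 (standard error 0.43, adjusted p = 0.200 by limma) and 0.38 without these 2 arrays. Control, shSep15 and shTR1/shSep15 cells lay within 0.09 of each other in their means. These means, 4.61, 4.58 and 4.66, were near the array medians of 4.45 to 4.58. The second Psmb8 probe set, with a mean of 3.23 over the 16 arrays, was below the median signal of 4.52. It had means of 3.37 in control, 3.16 in shSep15 and 3.33 in shTR1/shSep15 cells. On the arrays labelled shTR1 that probe set had 3.07, below control.

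The log2 signals of Psmb9 were 5.40, 5.73, 5.54 and 5.52 in control cells, 5.52, 6.56, 6.89 and 6.95 in shSep15 cells, 6.12, 5.60, 5.27 and 6.70 on the arrays labelled shTR1, and 5.16, 5.67, 5.25 and 5.40 in shTR1/shSep15 cells. In shSep15 cells 3 of 4 arrays stood above all control and all shTR1/shSep15 arrays, and replicate 1 did not. The differences were 0.93 from control (standard error 0.31, adjusted p = 0.174) and 1.11 from shTR1/shSep15 cells (standard error 0.31, adjusted p = 0.0771), both by limma. Without shSep15 replicate 1 both passed, with 1.25 and 1.43 (adjusted p = 0.0341 and 0.0128), and the second also without replicate 4 labelled shTR1 (0.0461). That shSep15 array was also the lowest of its line for Tap1, Tap2, Tapbp, Psmb10 and Nlrc5.

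Psmb10 had means of 7.59 ± 0.26 in control, 8.07 ± 0.18 in shSep15, 7.93 ± 0.36 on the arrays labelled shTR1 and 7.62 ± 0.13 in shTR1/shSep15 cells (SD, n = 4). The shSep15 arrays did not overlap with shTR1/shSep15 arrays, and the difference of 0.45 had an adjusted p of 0.226 by limma. The standard subunits that the 3 replace were also not past the threshold in any comparison. Psmb5, the counterpart of Psmb8, differed from control by 0.02 in shSep15 cells, Psmb6, that of Psmb9, by 0.26, and Psmb7, that of Psmb10, by −0.30 (standard errors 0.21, 0.11 and 0.30). In shSep15 against shTR1/shSep15 cells the 3 gave −0.31, 0.11 and −0.40. Whether an immunoproteasome subunit differed from its counterpart was not tested.

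**Figure D4:**
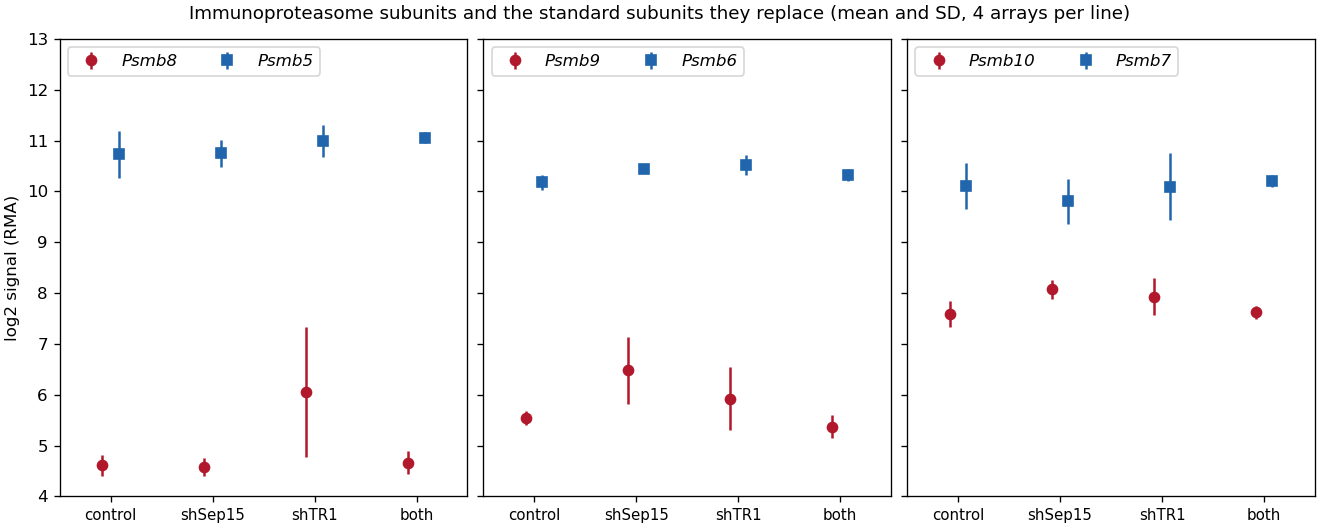
Mean and SD of the log2 signal of each immunoproteasome subunit (circles) and of the standard subunit it replaces (squares) in the 4 lines (4 arrays each; "both" is shTR1/shSep15). Signals of different probe sets are not levels that can be compared, so each gene is read across lines, where Psmb9 is highest in shSep15 cells and Psmb8 has a wide SD on the arrays labelled shTR1.

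Nlrc5, the class I transactivator, had log2 signals of 5.49, 6.70, 6.69 and 4.75 in control cells, 5.69, 6.16, 6.19 and 6.45 in shSep15 cells, 6.58, 6.21, 5.51 and 6.85 on the arrays labelled shTR1, and 5.25, 5.22, 5.30 and 5.90 in shTR1/shSep15 cells. The control arrays spanned nearly the whole range of the 16, and no line stood apart. The differences from control were 0.21, 0.38 and −0.49 (standard error 0.39), with adjusted p of 0.873, 0.688 and 0.810 by limma.

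By limma the effect of 2 hairpins differed from the sum of the single effects for 3 genes, and by the methods' test Tapbp and B2m did not pass. On the log2 scale this non-additivity, the effect of both hairpins minus the sum of the effect of each, was negative for all 10 genes, with a median of −1.22 (all genes 0.07). For H2-D1 the single effects summed to 1.11 and the effect of both was −0.23, a difference of −1.35 (standard error 0.24, adjusted p = 0.00746 by limma). For Tapbp the sum was 1.66 and the effect of both −0.70, a difference of −2.36 (standard error 0.55, adjusted p = 0.0342). For B2m the values were 0.67, −0.17 and −0.85 (standard error 0.21, adjusted p = 0.0452). These 3 of 10 genes were lower than additive, as were 2.75% of all genes, and so were 7 of the 25 probe sets (2.11% of all probe sets), 5 of them of H2-D1. At an unadjusted p under 0.05, 8 genes were lower (11.5% of all genes). By the methods' test the adjusted p was 0.0771 for Tapbp and 0.0749 for B2m. That test gave 3 of the 25 probe sets with adjustment (1.65% of all) and 15 without (15.4%). With further quantile normalization Tapbp and B2m had 0.0521 and 0.0551 by limma. The control arrays enter all 3 effects, so that low control signals would make the value more negative and high ones less negative. Each effect is a difference between lines, and hairpin and line cannot be told apart.

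**Figure D5:**
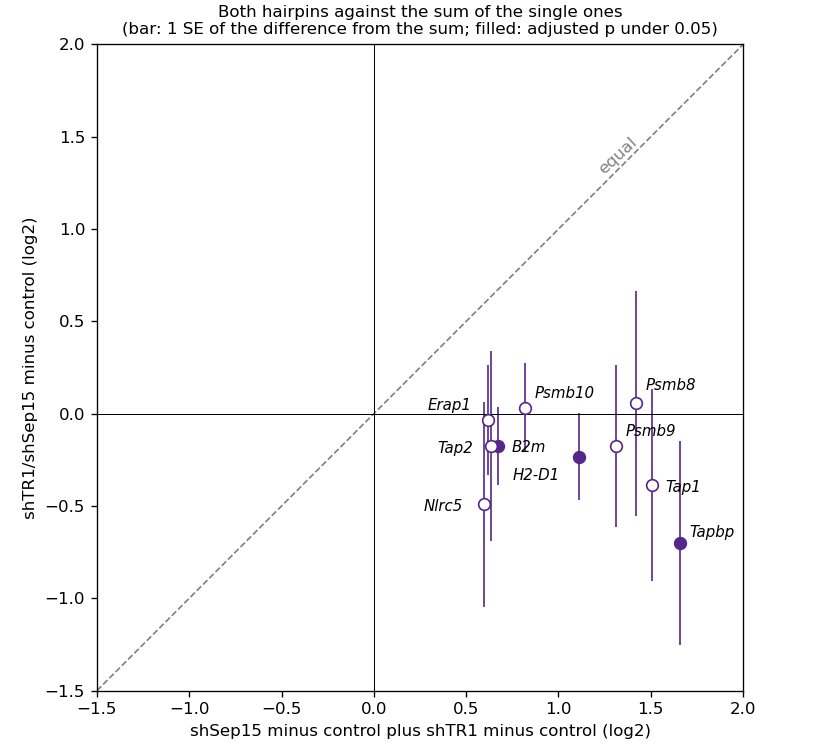
Effect of both hairpins on the log2 scale (vertical) against the sum of the effects of the single hairpins (horizontal) for the 10 genes, all against control; bars are 1 standard error of the distance from the dashed line of equality, and filled points have an adjusted p under 0.05 by limma. All 10 genes lie below the line, with sums of 0.60 to 1.66 and effects of both of −0.70 to 0.06.

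Without replicates 2 and 4 labelled shTR1 only 1 of the 7 probe sets was past the threshold, and 519 of all 45037 probe sets were. The value stayed negative for all 10 genes, with a median of −0.79 in place of −1.22. H2-D1 kept its call, with −1.17 and an adjusted p of 0.045, while Tapbp had −1.83 (adjusted p = 0.133) and B2m −0.71 (adjusted p = 0.209), all by limma. H2-D1 was past the threshold with any 1 array left out, with an adjusted p of at most 0.0208. The call of Tapbp was lost without control replicates 1, 3 or 4, shSep15 replicates 3 or 4, replicates 2 or 4 labelled shTR1, or any shTR1/shSep15 replicate, with an adjusted p of at most 0.0815. The call of B2m was kept only without control replicate 2 or 3, shSep15 replicate 2 or replicate 3 labelled shTR1, and otherwise had an adjusted p of at most 0.106. With the replicate block on all arrays B2m did not pass (0.07), and Tap1 did (0.0489). Genes that passed with 1 array left out were Tap1 (−2.21 without control replicate 2 and −2.21 without shSep15 replicate 1, adjusted p = 0.0142 and 0.0291), Psmb9 (−1.80 without shSep15 replicate 1, 0.0203), Psmb10 (−0.95 without replicate 3 labelled shTR1, 0.0275) and Erap1 (−0.90 without replicate 1 labelled shTR1, 0.0351).

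The other genes of the route were read from lists chosen with earlier results of these arrays known, and 1.86% of all genes were higher in shSep15 than in control cells. Of the 7 other class I heavy chains measured none passed, with a median difference from control of 0.08. H2-K1, the second classical heavy chain, had 0.44 (standard error 0.27, adjusted p = 0.56 by limma) from control and 0.76 (adjusted p = 0.183) from shTR1/shSep15 cells. The 4 loading chaperones calreticulin, calnexin, Pdia3 and Tapbpl had a median of −0.03 and the 6 cytosolic peptidases of 0.07, none past the threshold.

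Among the 7 proteasome regulators and assembly factors Psmg3, an assembly chaperone, rose from 8.28 ± 0.18 to 8.96 ± 0.12 (SD, n = 4), by 0.69 (standard error 0.14, adjusted p = 0.0197 by limma). Psme1, a subunit of the interferon-inducible activator, had 0.97 (standard error 0.33, adjusted p = 0.18). Of 11 further core subunits, which both forms of the proteasome share, Psmb4 rose, by 0.41 (standard error 0.08, adjusted p = 0.0127). Both were also higher in shSep15 than in shTR1/shSep15 cells, by 0.61 and 0.45 (adjusted p = 0.0295 and 0.00617).

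Of 10 transcription factors of class I genes Rfxap, a subunit of the complex through which Nlrc5 reaches class I promoters, rose in shSep15 cells from 8.34 ± 0.20 to 9.29 ± 0.17 (SD, n = 4), by 0.95 (standard error 0.14, adjusted p = 0.00207 by limma). It stood at 8.53 ± 0.19 on the arrays labelled shTR1 and at 8.0 ± 0.20 in shTR1/shSep15 cells, 1.29 below shSep15 cells (adjusted p = 0.000236). The arrays of shSep15 cells lay between 9.09 and 9.48 and those of the other 3 lines between 7.74 and 8.77, without overlap. Its partners Rfx5 and Rfxank had differences of −0.40 and 0.09 from control in shSep15 cells, neither past the threshold. Irf1, an interferon-induced activator of these genes, had a control mean of 8.86 ± 2.07 (SD, n = 4), with 1 control array at 11.95, and no comparison passed.

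Of 8 class II genes H2-DMa, which helps load class II molecules, rose in shSep15 cells by 0.86 (standard error 0.11, adjusted p = 0.000914 by limma), to a log2 signal of 5.04 ± 0.12 (SD, n = 4). Ciita, the class II transactivator and relative of Nlrc5, was at 4.47 in control and 4.53 in shSep15 cells, near the median of all probe sets. H2-Aa and H2-Ab1, the chains of a class II molecule, had differences of 0.08 and 0.01, and neither passed.

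Over the 16 arrays the brightest probe sets of the class I genes followed each other to different degrees, given here as a description, since the arrays share lines and processing. The closest pairs were Tapbp with Psmb9 (Pearson r = 0.91), B2m with H2-D1 (0.90) and Tap1 with Tapbp (0.90). Psmb8 was least like the rest, with 0.52 to H2-D1, its closest. Nlrc5 was closest to B2m (0.83). The mean of the 10 genes, each centred on its own mean, was highest on replicate 4 labelled shTR1 (0.98) and lowest on shTR1/shSep15 replicate 1 (−0.59).

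The 5 genes outside the route that followed this mean most closely over the 16 arrays were Snap29, a membrane fusion protein (r = 0.92), Sp100, a nuclear body protein (0.92), Oas1a and Oas1c, of the oligoadenylate synthetases induced by interferon (0.91 and 0.91), and Xaf1, an interferon-induced partner of an apoptosis inhibitor (0.91). Xaf1 had means of 6.48 in control, 10.31 in shSep15, 8.68 on the arrays labelled shTR1 and 5.35 in shTR1/shSep15 cells. Oas1a had 8.37, 10.53, 9.55 and 7.72 in the same order. The line means of Oas1c, 3.09 to 3.73, lay below the median signal of 4.52.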

How the data were processed

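Total RNA of the 4 CT26 lines was hybridised to Affymetrix mouse genome arrays. Log2 signals per probe set, deposited by the authors after Robust Multi-Array Analysis (version not given in the sources used here), were used unchanged. Of 45101 probe sets, 64 control probe sets were left out. Of the 45037 tested, 34945 carry 1 gene symbol, 932 several and 9160 none. A gene was represented by its brightest probe set with that symbol alone, and every member probe set was also reported. No counts or depth exist, and 4 arrays per line limit the precision.

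Means per line were estimated over all 16 arrays in limma 3.58.1 under R 4.3.3, with moderated variances (prior degrees of freedom 2.58, residual 12). There were 7 comparisons: each knockdown line with control, each single knockdown with shTR1/shSep15, the single knockdowns with each other, and non-additivity. P-values were adjusted by Benjamini and Hochberg's method across every probe set tested, with 0.05 as the threshold. The fit was tested on simulated data. Between shSep15 and shTR1/shSep15 cells all 4 same-numbered pairs of arrays had correlated deviations from the line means (0.105 to 0.466). No other pair of lines did, and this one was picked from the same arrays. Whether the repeat numbers of the titles mark a pairing was not tested. Alternatives were an intensity trend, bright probe sets alone, only the lines compared, quantile normalization, centring on medians, array weights, a replicate block (on 2 lines alone, added after seeing the data), the methods' own ANOVA, each array left out, doubtful arrays left out, and other choices of probe sets. The members and lists were chosen with earlier results of these data known. All members were named, with list genes past the threshold, their counterparts, and the 5 genes most like the members. Not analysed here were Psme2, Nfkb1 and 8 class I heavy chains among the list genes. Promoter sequences are RefSeq's. Python 3.11.15 with matplotlib 3.10.9 drew the figures.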

Additional observations from a re-analysis of the deposited data

Results flagged for a closer look

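For 3 genes the effect of both hairpins differed from the sum of the single effects by limma's test of that difference: −0.85 for B2m, −2.36 for Tapbp and −1.35 for H2-D1 on the log2 scale. These effects are differences between lines, and hairpin and line cannot be told apart. Without replicates 2 and 4 labelled shTR1 H2-D1 kept its call (adjusted p = 0.045 by limma). Tapbp (0.133) and B2m (0.209) lost theirs.

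Of 40 groups of 4 arrays, a gene in a line each, 2 held an array far from the other 3, and chance gives about 1 in 20. Tap2 was 7.48 on control replicate 3, where the next highest control array had 6.60. Nlrc5 was 5.90 on shTR1/shSep15 replicate 4, where the next highest of that line had 5.30.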

How the results depend on the processing

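The limits come from 4 arrays per line and from signals near the floor or the top, with no depth. For shSep15 against shTR1/shSep15 cells the 5 member probe sets past the threshold became 9 with bright probe sets alone, 13 with only the lines compared, 2 with median centring, 0 with the methods' ANOVA adjusted and 14 unadjusted, 15 with array weights, 10 without replicates 2 and 4 labelled shTR1 and control replicate 2, and 0 to 9 with 1 array left out (0 without shSep15 replicate 3 or 4 or any shTR1/shSep15 replicate, 9 without control replicate 2 or replicate 4 labelled shTR1). Of all 45037 probe sets 1196 passed there in the main fit, 3753 with only the lines compared, 974 with median centring and 5525 with array weights. The ANOVA gave 738 adjusted and 5665 unadjusted, and bright probe sets alone gave 1289 of 22519. Without the 3 arrays 2488 passed, and 613 to 2239 with 1 array left out. The 7 of the non-additivity became 3 with quantile normalization, 3 with the ANOVA adjusted and 15 unadjusted, 15 with array weights, 1 without replicates 2 and 4 labelled shTR1, and 3 to 10 with 1 array left out. Over all probe sets 1282 passed there in the main fit, 1200 with quantile normalization and 4462 with array weights. The ANOVA gave 744 adjusted and 6923 unadjusted. Without replicates 2 and 4 labelled shTR1 519 passed, and 656 to 2340 with 1 array left out. The 0 of shSep15 against control became 9 with the ANOVA unadjusted, 4 with array weights, 1 without the 3 doubtful arrays, and 0 to 1 with 1 left out. Here 885 of all probe sets passed in the main fit, 5483 with the ANOVA unadjusted and 2616 with array weights. Without the 3 arrays 1317 passed, and 437 to 1176 with 1 left out. Unadjusted ANOVA gave 5 for shTR1 and 4 for both against control, 12 for shTR1 against both (array weights 9, 1 array left out 0 to 1), and 1 for shSep15 against shTR1 (array weights 1). Over all probe sets the unadjusted ANOVA gave 5037, 3368, 4335 and 3424 in that order. Array weights gave 1084 for shTR1 against both and 933 for shSep15 against shTR1. With 1 array left out shTR1 against both gave 5 to 250. The cause was not tested, beyond what fewer arrays or no adjustment do by construction.

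Over all lines same-numbered arrays correlated from −0.53 to 0.47, 8 of 24 pairs above 0.1, and 4 of 16 arrays were closest to one of their own number. Numbers without meaning would give that last share on average. With the replicate block on all arrays 2 member probe sets of shSep15 against shTR1/shSep15 were called (2.17% of all probe sets), and 17 with the block on these 2 lines alone (12.9%). The block on all arrays ended the calls of H2-D1 there and of B2m in the non-additivity, let Tap1 pass in both, and changed no other call of a member gene.

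Differences near 0 changed sign, all uncalled. Psmb8 in shSep15 against control became 0.014 with median centring, 0.0080 with quantile normalization, 0.028 without the 3 doubtful arrays, and −0.12 to 0.028 with 1 array left out; against shTR1/shSep15 it was −0.16 to 0.023. In shTR1/shSep15 against control Psmb8 became −0.027 with array weights and ran from −0.053 to 0.12 with 1 array left out, Psmb10 became −0.037 with quantile normalization, −0.10 with array weights and −0.080 without the 3 arrays (−0.080 to 0.13), Erap1 became 0.0093 with median centring and 0.061 with array weights (−0.11 to 0.061), and Tap2 ran from −0.36 to 0.052. For shTR1 against control Erap1 became −0.074 without replicates 2 and 4 and −0.098 without the 3 arrays, against both −0.038 in either case, and Psmb10 −0.0058 without the 3 arrays. Nlrc5 with 1 array left out ran from −0.17 to 0.48 in shSep15 and from −0.0053 to 0.65 for shTR1 against control.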

Other observations

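A probe set annotated to both H2-K1 and H2-D1 was left out of the values above because its signal cannot be assigned to 1 of them. It differed between shSep15 and shTR1/shSep15 cells by 1.07 (adjusted p = 0.085 by limma) and between shSep15 and control by 0.60 (adjusted p = 0.461). Another, annotated to H2-D1, H2-Q2 and Gm38417, lay below the median of all probe sets and differed by −0.02 and −0.03.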
